A study of Mus musculus with 7 samples.

Results

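The cells described here were mouse embryonic fibroblasts that had been transduced with viruses carrying Olig2, Sox10 and Nkx6.2 and captured as 1 single-cell library, MEF-3F. A barcode was taken as a cell where it held 500 or more UMIs (unique molecular identifiers, each standing for 1 captured transcript). By this rule 161 of the 169 barcodes of the library were cells, out of 1124 cells in the 7 libraries of the series. The cells nearest the threshold held 508 and 522 UMIs, and the 8 barcodes below it held 380 to 499. The differences between these 161 cells are the subject here, and the untransduced fibroblasts (MEF, 131 cells) served as the background for the share of cells with a transcript.

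The study converted fibroblasts and brain pericytes into induced oligodendrocyte progenitor cells (OPC) by forced expression of transcription factors. All cells came from C57BL/6 mice, and each population was 1 library: fibroblasts with 3 factors (MEF-3F) or 2 (MEF-2F, Olig2 and Sox10), pericytes with 3 or 2 factors (PC-3F, PC-2F), primary OPC from brain (pOPC), and the fibroblasts (MEF) and pericytes (PC) without virus. Fibroblasts and pericytes were each kept in their own medium and pOPC and converted cells in OPC medium, and cells were loosened with trypsin and captured on the ddSEQ droplet system, which reads transcript 3′ ends. The kind of virus, its promoter, any selection of cells and the time after transduction are not given in the sources used here, and with 1 library nothing below has a replicate check or a test.

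OPC are the dividing glial cells of the brain that give rise to oligodendrocytes, the cells that make central myelin. Olig2, a basic helix-loop-helix factor that binds E-boxes, and Sox10, an HMG-box factor, are needed for this lineage, and Nkx6-2 is a homeodomain factor of its later steps. Sox10 also acts outside the brain, in neural crest and in Schwann cells, the glia that make peripheral myelin. Collagens II, IX and XI are the fibrillar and linking collagens of cartilage, where the related factor Sox9 drives them, whereas collagens I and III are those of fibroblasts.

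The 161 cells held 508 to 15556 UMIs (median 1866) and 414 to 5228 genes (median 1273), 458290 UMIs in all. The library joined 2 blocks of barcodes whose meaning the labels do not give, 121 cells in the second block (median 1946 UMIs) and 40 in the first (median 1545). The median share of mitochondrial UMIs was 0.866% in the second block and 0.369% in the first. No barcode was shared between the blocks or with another library. The deposited values had to be decoded into UMI counts, and every level below rests on that reading. To compare cells of unequal depth, each was thinned at random to 1000 UMIs, which kept 122 cells (95 of the second block and 27 of the first) and left out 39. Intervals are exact at 95% and cover counting error only.

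The markers that go with the label were present, and each was unevenly spread over the cells. Olig1, the sister factor of Olig2 in OPC, was at 687 CPM (counts scaled to a common library total; interval 614 to 768). Its UMIs were found in 89 of 161 cells, with a median of 1 and a highest value of 31 UMIs in a cell. After thinning, 33.6% of MEF-3F cells had an Olig1 UMI (interval 25.3 to 42.7%), against 0 of 129 MEF cells, which allows a share of up to 2.82%. Fabp7, a fatty acid carrier of radial glia and OPC, was at 888 CPM and in 39.3% of thinned MEF-3F cells (30.6 to 48.6%), also against 0 of 129 MEF cells. Bcan, which encodes the brain proteoglycan brevican, was at 724 CPM and in 54.9% of thinned cells (45.7 to 63.9%), again with none in thinned MEF cells. Aldoc, the brain form of aldolase that marks astrocytes, was at 947 CPM and in 45.1% (36.1 to 54.3%), with none in thinned MEF cells. Col2a1, the collagen II chain, was the highest of the set at 2944 CPM and in 72.1% of thinned MEF-3F cells (63.3 to 79.9%), but here 19.4% of thinned MEF cells had a UMI too. The median depth was 1866 UMIs in MEF-3F and 4665 in MEF before thinning.

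Few cells had the whole marker set in 1000 UMIs. Of the 122 thinned cells, 4 showed all 5 markers, 18 showed 4, 39 showed 3, 38 showed 2, 14 showed 1 and 9 showed none. The 4 cells with all 5 were in the second block, and 7 of the 9 with none were in the first. The spread of the single markers was not alike. The 16 cells with most of a gene, of 161, held 69.8% of Fabp7 UMIs, 53.6% of Col2a1, 52.4% of Olig1, 43.8% of Aldoc and 38.9% of Bcan UMIs. Bcan was the most even of the 5, with no cell above 12 UMIs, while the highest cells held 97 UMIs of Col2a1 and 71 of Fabp7.

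**Figure D1:**
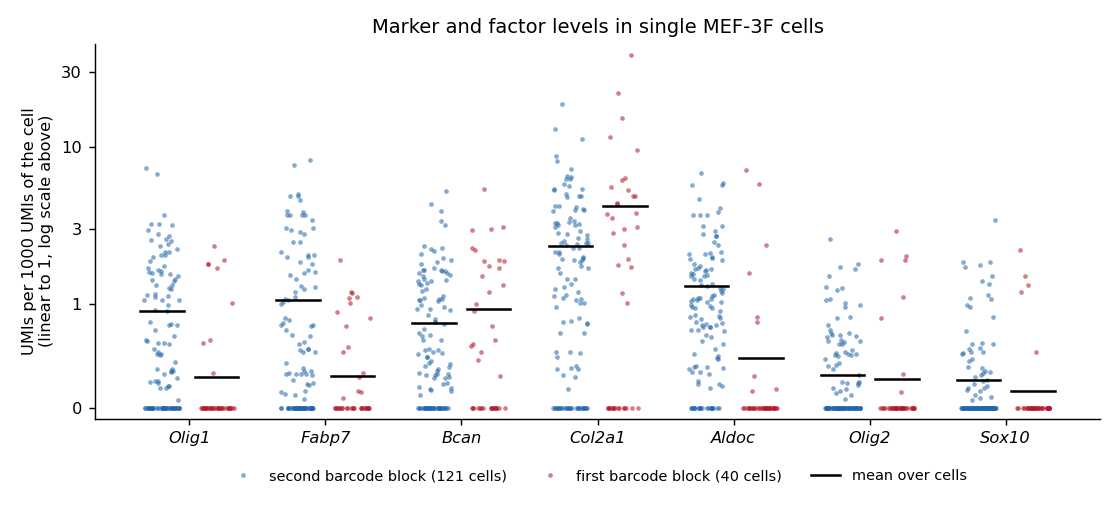
UMIs of 7 genes per 1000 UMIs of the cell, 1 point per MEF-3F cell, with the second barcode block (121 cells) left of the first (40 cells) and a bar at the mean over cells; the axis is linear to 1 and logarithmic above. Most cells lie at or below a few UMIs per 1000, Col2a1 reaches 38.0 in 1 cell of the first block, and Olig1, Fabp7 and Aldoc have higher means in the second block.

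The blocks differed in several of these genes. Olig1 was at 818 CPM in the second block and 155 CPM in the first, Fabp7 at 1060 and 188 CPM, and Aldoc at 1082 and 398 CPM, in the same order of blocks. Among thinned cells, Olig1 was found in 42.1% of the second block (32.0 to 52.7%) and in 3.70% of the first, 1 of 27 cells. Bcan was at 712 CPM in the second block and 774 CPM in the first (ratio 0.92, 0.70 to 1.22), and Col2a1 was lower in the second block, at 2615 CPM against 4279 CPM. Values inside the second block are given beside many of the relations between cells that follow.

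The transduced factors were found at low counts. Olig2 was at 329 CPM in 62 cells, and 24.6% of thinned cells had a UMI (17.2 to 33.2%), against 0 of 129 in MEF. Sox10 was at 244 CPM in 50 cells and in 22.1% of thinned MEF-3F cells (15.1 to 30.5%), against 1.55% of MEF cells. Nkx6-2 had 1 UMI in the whole library, in 1 cell. Sox9, the cartilage factor, had 16 UMIs in 10 cells. Transcripts from the viruses and from the cells' own genes cannot be told apart in these counts. Of the 122 thinned cells 8 showed both Olig2 and Sox10, 22 Olig2 alone, 19 Sox10 alone and 73 neither. Without thinning, 28 of 161 cells showed both and 77 neither. Olig1 was found in 15 of the 30 Olig2-detected cells (31.3 to 68.7%) and in 26 of the 92 undetected ones (19.4 to 38.6%), so that the intervals overlap. For Sox10 the shares were 26.7% of Olig2-detected and 20.7% of undetected cells. Olig2 lies at chr16:91225457-91228677 and Olig1 at chr16:91269772-91271933, both on the plus strand of GRCm38.

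Acta2, Apoe, Col2a1 and Col11a1 led the genes by how much they varied between cells. For 734 genes with 30 or more thinned UMIs the variance over the mean across cells was computed, which is 1 for counting noise alone. The median was 1.10, and 37 genes (5.04%) reached 2. In 31 genes the value was above 1.5 in each block on its own. Col2a1 had a value of 6.52 (3.25 in the second block and 11.96 in the first) and Col11a1, a collagen XI chain, 5.20 (3.73 and 8.97, in the same order). Apoe, the lipid carrier of astrocytes, had 6.52 (6.55 and 6.57). Ednrb, the endothelin receptor of neural crest and glia, had 4.28 (1.96 and 5.60). Fabp7 reached 3.40 (3.37 and 0.81) and Aldoc 2.88 (2.58 and 5.02), again second block before first.

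The highest value of all, 8.82, belonged to Acta2, smooth muscle actin, and rested on few cells. Of 161 cells 19 held an Acta2 UMI, and 2 cells of the second block held 58 and 41 of the 130 UMIs, 76.2% of them. In the rest of the library Acta2 was at 69.2 CPM, against 284 CPM over all cells. The same 2 cells were also the highest in Aldoc (39 and 18 UMIs) and among the highest in Fabp7 (52 and 26) and Apoe (56 and 28). Results below that rest on them are given without them too.

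**Figure D2:**
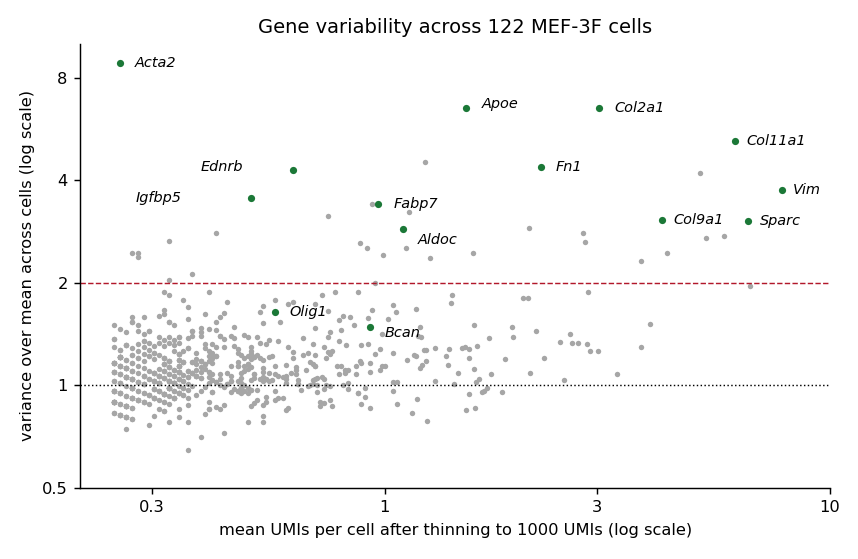
Variance over mean of the thinned UMI counts against the mean per cell for 734 genes in 122 MEF-3F cells, both axes logarithmic, with a dotted line at 1, the value of counting noise alone, and a dashed line at 2. Most genes lie near 1, 37 lie at or above 2, and named genes are in green; of the 5 markers, Olig1 (1.64) and Bcan (1.48) lie below 2.

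Gene lists of cell types and processes were followed as a share of each cell's UMIs. The cartilage list had the widest range: 23 of its 30 members were among the genes of the library, 16 with 30 or more UMIs, and its share ran from 0.103 to 7.61% over cells (median 1.57%). It was led by Col11a1 (6319 CPM), Col9a1 (4120 CPM) and Col2a1. The OPC list (29 of 31 members in the library, 17 with 30 or more UMIs) ran from 0.0338 to 1.65% with a median of 0.624%, led by Vcan, Fabp7, Bcan and Olig1. The fibroblast list ran from 0.213 to 6.03% (median 1.53%) and was led by Sparc, which was found in each of the 161 cells at 1 to 178 UMIs. The chain of collagen I that usually defines fibroblasts, Col1a1, was at 155 CPM in 27 cells, and its partner Col1a2 at 1013 CPM in 76 cells. The astrocyte and radial glia list ran from 0.172 to 4.53%. The Schwann and neural crest list was absent from 15 cells and reached 1.51% in 1 cell, with a median of 0.178%.

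Of the lists of other cell types 5 were near 0. Macrophage and keratin markers had 1 UMI each in 161 cells, endothelial markers 2, and skeletal muscle and adipocyte markers 3 each. The neuronal list had 210 UMIs and was absent from 54 cells, and the pericyte list had 164 UMIs and was absent from 88. Melanocyte markers had 39 UMIs, led by Pmel with 14 UMIs in 6 cells. Mbp, the basic protein of mature myelin, was at 67.6 CPM in 20 cells, and Pdgfra, the growth factor receptor that marks OPC, at 107 CPM in 31 cells.

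Pairs of lists were set against each other over cells, with shared members removed from each. These are descriptions over cells of 1 library that share the total per cell. The OPC share ran against the fibroblast share (Pearson r = -0.41 over 161 cells, -0.34 in the 121 cells of the second block and -0.43 in the 40 of the first). The OPC share also ran against the Schwann share (r = -0.39, -0.23 in the second block and -0.61 in the first), but this rested on the 18 cells of a Schwann-like cluster described below: in the other 143 cells r was 0.0054. The OPC and cartilage shares were weakly positive (r = 0.24, 0.17 in the second block and 0.49 in the first), and r was 0.11 in the 143 cells without the Schwann-like. The astrocyte and cartilage shares ran against each other (r = -0.35, -0.26 in the second block and -0.48 in the first). The highest r, 0.76 between the oligodendrocyte differentiation and Schwann lists, was 0.40 in the second block and 0.89 in the first, and 0.32 without the Schwann-like cells. None of the lists used for these pairs had a Pearson r beyond 0.20 in size with the log of the cell's UMIs. The highest Spearman value was 0.203, for the Schwann list. The positive r between the astrocyte and contractile lists in the second block, 0.60, was 0.38 in 119 cells without the 2 Acta2 cells.

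**Figure D3:**
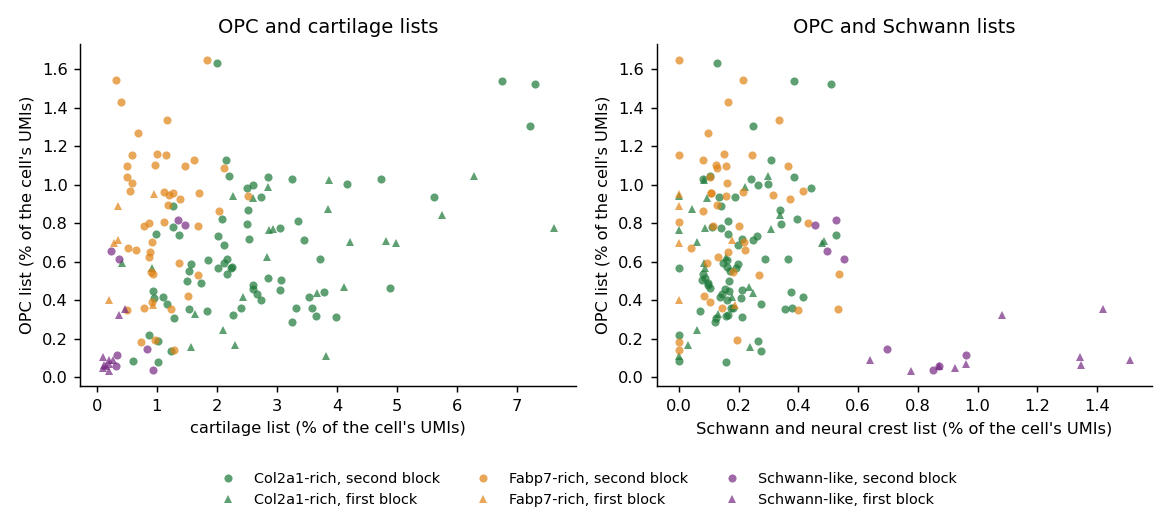
OPC list share of each MEF-3F cell against its cartilage share (left) and its Schwann and neural crest share (right), in percent of the cell's UMIs, coloured by cluster, with circles for the second and triangles for the first barcode block. The 14 cells with Schwann shares from 0.640 to 1.51% lie at or below 0.355% in the OPC list.

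Clustering on 500 variable genes gave 3 groups of cells. The clusters were made from the genes of these same cells, so levels by cluster describe them and are no independent result. The largest, 92 cells (68 of the second block and 24 of the first), was led by Dcn, Spp1, Nrk, Col6a3 and Gpr17 and held most of the cartilage collagens; it is called Col2a1-rich here and was given no cell type. Its cells had a median cartilage share of 2.53% (0.426 to 7.61%). Dcn, Spp1, Nrk, Col6a3 and Gpr17 were found in only 14, 10, 9, 16 and 22 of its cells, and Col2a1 in 89. Single cells held 27, 21 and 17 of the 92 Dcn UMIs of the library. The next, 51 cells (45 and 6), was led by Acta2, Tagln, Cav1 and Fabp7 and is called Fabp7-rich, also without a type. Acta2 and Tagln were found in only 7 and 5 of its cells, and Fabp7 in 39. Its cells were shallow, with a median of 1238 UMIs against 2349 in the other cells. The third, 18 cells (8 and 10, median 2780 UMIs), was led by genes that include Egfl8, Ngfr, Itih5 and Mal, and 3 of its 10 leading genes were on the Schwann and neural crest list, so it is called Schwann-like.

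The 3 clusters spread the markers as follows. Col2a1 was at 4286 CPM in the Col2a1-rich cells, 984 CPM in the Fabp7-rich and 170 CPM in the Schwann-like. Col9a1, a collagen IX chain, was at 5506, 1877 and 1563 CPM in the same order of clusters, and Acan, the cartilage proteoglycan aggrecan, at 308, 50.7 and 14.2 CPM. Fabp7 was at 560, 2283 and 284 CPM and Aldoc at 757, 1978 and 284 CPM. Without the 2 Acta2 cells the Fabp7-rich values were 1660 CPM for Fabp7 and 1558 CPM for Aldoc, and Acta2 itself was at 79.0 CPM there. Olig1 was at 577, 1065 and 611 CPM and Olig2 at 304, 487 and 213 CPM. The Schwann-like value of Olig1 came from 2 of 18 cells, 1 of which held 31 of the 43 UMIs. In the second block alone Olig1 was at 687, 1036 and 1084 CPM, Col2a1 at 3650, 1004 and 303 CPM, Fabp7 at 657, 2370 and 353 CPM and Aldoc at 853, 1900 and 504 CPM. After thinning, Col2a1 was found in 70.7% of the Olig1-detected cells (54.5 to 83.9%) and in 72.8% of the undetected (61.8 to 82.1%). The median OPC share per cell was 0.593% in the Col2a1-rich cells (0.0780 to 1.63%), 0.863% in the Fabp7-rich (0.143 to 1.65%) and 0.0975% in the Schwann-like (0.0338 to 0.816%).

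**Figure D4:**
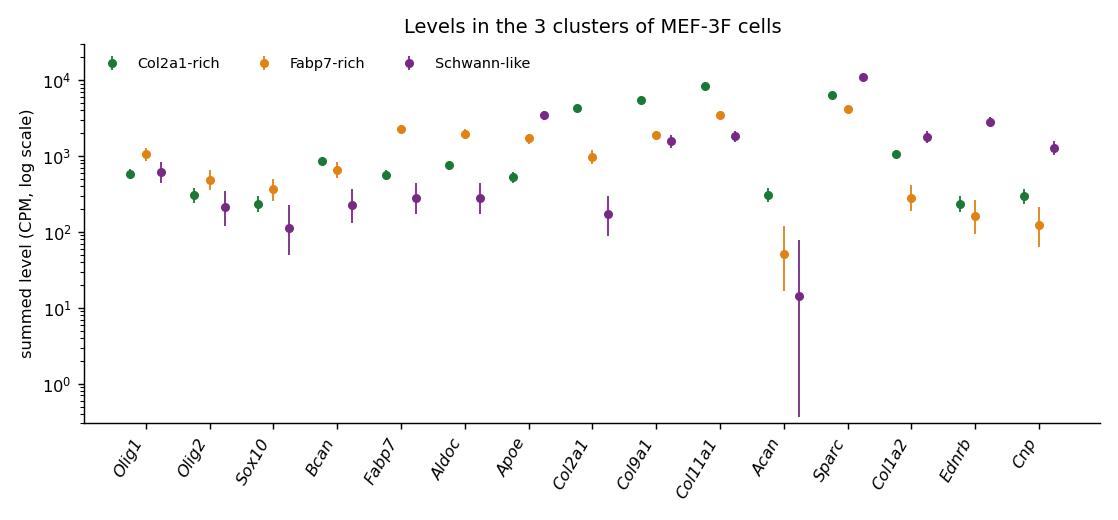
Summed level of 15 genes in the Col2a1-rich (92 cells), Fabp7-rich (51) and Schwann-like (18) clusters in CPM on a log axis, with exact Poisson intervals at 95% that cover counting error only; Acta2 is not drawn. Collagens II, IX and XI and Acan are highest in the Col2a1-rich cells, Fabp7 and Aldoc in the Fabp7-rich, and Ednrb and Cnp in the Schwann-like cells.

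The Schwann-like cells differed in their OPC share, which ran from 0.0338 to 0.816%. Divided at the widest gap in their OPC share, a division chosen after the values were seen, 4 cells lay between 0.612 and 0.816% and 14 between 0.0338 and 0.355%. Such a cut gives 2 sides in any set of cells, so it does not show 2 kinds of cell. With 20 components in the clustering, 2 of the 4 cells stayed in the Schwann-like cluster. The 4 cells were of the second block, and their Schwann shares, 0.454 to 0.554%, were below those of the other 14, 0.640 to 1.51%. Olig1, Olig2 and Sox10 are on the OPC list and so helped to set this division. Their levels follow from it in part and are given as a description. Sox10 is on the Schwann and neural crest list too. The 14 cells (4 of the second block and 10 of the first) held no UMI of Olig1 or Olig2 in 46885 UMIs, which allows up to 78.7 CPM of each. In the 143 cells outside the cluster Olig1 was at 701 CPM and Olig2 at 351 CPM. Sox10 had 5 UMIs in 4 of the 14 cells, 107 CPM (34.6 to 249), against 268 CPM in the 143 cells. In all 18 Schwann-like cells Sox10 was at 114 CPM, against 235 CPM in the Col2a1-rich and 365 CPM in the Fabp7-rich cells.

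Genes off the OPC list were then read in the same 14 cells, chosen after their values were seen; Ednrb and the 2 that follow it are on the Schwann and neural crest list, whose genes helped to form the cluster. Ednrb was at 3242 CPM in all 14, against 217 CPM in the 143 cells and 1.27 CPM in MEF. Ngfr, the neurotrophin receptor of crest and Schwann cells, was at 619 CPM in 7 of the 14, against 2.58 CPM, and Foxd3, a factor of the early crest, had 10 UMIs in 6 of the 14 and none in the 143 cells. Sparc was at 13608 CPM in the 14 cells, against 5770 CPM. As 10 of the 14 cells were of the first block, these contrasts hold a difference of blocks too. In all 18 Schwann-like cells Ngfr was at 25.2 CPM in the second block and 944 CPM in the first. Sparc was at 7311 and 16040 CPM there, and at 5328 and 11731 CPM in all cells of the 2 blocks. Ednrb was at 2420 and 3319 CPM in the 18 cells, in the same order of blocks. Not every gene of Schwann cells was high in the 18 cells. Gap43 had 0 UMIs there and Cdh19 had 1. Egr2 was at 114 CPM, against 124 CPM in the Col2a1-rich and 50.7 CPM in the Fabp7-rich cells. Col2a1 was at 149 CPM in the 14 cells and 3447 CPM in the 143. In the whole library 55 of 161 cells had neither Olig1 nor Olig2, with a median of 1274 UMIs; the 14 cells had a median of 2537.

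In the 4 cells chosen for their higher OPC share, Olig1 had 43 UMIs in 2 cells, 31 of them in 1, and Olig2 had 15 UMIs in 3 cells. Ednrb was at 1956 CPM in the 4 cells. Col9a1 was at 3657 CPM there, against 512 CPM in the 14 cells. These levels also rested largely on single cells. The cell of 12986 UMIs held 22 of the 46 Ednrb UMIs, and 1 of the 4 cells held 53 of the 86 Col9a1 UMIs. No doublet caller was run on so few cells. The 4 cells held 1214 to 12986 UMIs, and 20 cells of the library, 4 of them Schwann-like, had more than 3 times the median (5598 UMIs).

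Asked for 5 clusters, a choice made after seeing the data, the same procedure divided the Col2a1-rich cells. A group of 42 cells was led by Dcn, Igfbp4, Spp1 and Col6a3 and a group of 48 by Cpm, Gpr17, Fibin and Papss2, with 2 cells apart, and the genes given here were again chosen after their values were seen. Col2a1 was close in both, at 3967 CPM in the 42 cells and 4579 CPM in the 48. Col1a2 was at 1983 CPM in the 42 cells and 304 CPM in the 48, Col6a1 at 872 and 188 CPM in the same order, and Dcn, the proteoglycan decorin, at 669 CPM in 12 of the 42 cells against 0 UMIs. Col9a3 was lower in the 42, at 759 CPM against 2884 CPM, and so was Gpr17, a receptor of cells on the way from OPC to oligodendrocyte, at 82.6 against 310 CPM. The levels of Fabp7 and Ncan rested largely on 1 cell of 15556 UMIs in the 48. It held 71 of the 129 Fabp7 UMIs and 34 of the 81 UMIs of Ncan, which encodes neurocan. Fabp7 was at 248 CPM in the 42 cells and 834 CPM in the 48, or 417 CPM without that cell, and Ncan at 143 and 524 CPM, or 338 CPM without it. Olig1 was at 511 CPM in the 42 cells and 640 CPM in the 48, and Olig2 at 293 and 317 CPM.

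Next, the thinned cells with a UMI of a marker were set against those without it, at equal depth, for 733 other genes with 30 or more UMIs. Of the 7 genes used, Col2a1 had the most genes past 2-fold. Past 2-fold, 7.23% of the genes were higher and 5.59% lower in the 88 Col2a1-detected cells than in the 34 undetected. Of 8 measured cartilage list members 7 were 2-fold or more higher over all cells, with a median ratio of 3.00, against 1.0 over all genes tested. Schwann-like cells were 15 of the 34 undetected and 2 of the 88 detected. The cartilage list, Col2a1 left out, had a ratio of 2.66, with 2.07 in the second block and 1.91 without the Schwann-like cells. Under these 2 alternatives Col9a3 was at 1.62 and 1.73 and Col11a1 at 1.93 and 1.90, below 2-fold. Col11a2 had 128 UMIs in detected cells and 8 in undetected cells, a ratio of 6.21 (3.99 inside the second block). Lect1, the cartilage protein chondromodulin, had 85 and 6 UMIs (ratio 5.50, and 6.70 in the second block). Smoc2, a matrix calcium binder, had 39 and 1 (ratio 15.1, and 7.12 in the second block), and Gas1, a growth arrest and hedgehog co-receptor, 32 and 2 (6.21, and 8.48 in the second block). These 4 were the only ones of the 8 highest genes to stay past 2-fold inside the second block, without the Schwann-like cells and with another random draw of the thinning. The second block and the cells without the Schwann-like are parts of the counts that ranked these genes, so they are no separate check. At the lower end, Ednrb had a ratio of 0.10 in Col2a1-detected cells, but 0.27 in the second block and 0.53 without the Schwann-like cells. Apoe stayed lower under each of these, with ratios of 0.21 in all cells, 0.25 in the second block and 0.49 without the Schwann-like cells.

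The Fabp7 division was read in the same way. Past 2-fold, 3.27% of genes were higher and 4.77% lower in the 48 Fabp7-detected cells than in the 74 undetected. Aldoc had 86 UMIs in detected cells and 48 in undetected, a ratio of 2.77 (1.92 to 4.03; 2.22 in the second block, 2.42 without the 2 Acta2 cells). Apoe had 118 and 68 UMIs, a ratio of 2.68 (1.97 to 3.67), and Ptprz1, a receptor phosphatase of OPC and radial glia, 26 and 12, a ratio of 3.35. Acta2 had 29 and 2 UMIs, a ratio of 22.4, and without the 2 cells the counts were 6 and 2 (ratio 4.84, interval 0.865 to 49.0). The lipid carrier list, Fabp7 left out, was at 6453 CPM in detected cells and 3689 CPM in undetected (ratio 1.75, 1.74 in the second block and 1.62 without the 2 Acta2 cells). The cartilage list had a ratio of 0.75 and the fibroblast list 0.68 (0.83 in the second block).

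Aldoc-detected cells (55, against 67 undetected) had 1.91% of genes past 2-fold higher and 3.41% lower. The astrocyte and radial glia list, Aldoc left out, was close in both, with a ratio of 0.996 (0.906 to 1.10). That ratio was 1.07 in the second block and 0.937 without the 2 Acta2 cells. Among the genes past 2-fold higher was Ldhb, a lactate dehydrogenase chain, with 39 UMIs in detected cells and 16 in undetected (ratio 2.98, and 2.23 in the second block). The glycolysis and hypoxia list, which holds the related aldolase Aldoa, had a ratio of 1.38 (1.10 to 1.73), and 1.07 with another random draw. Of the 8 lowest genes 4 stayed past 2-fold under each alternative: Col6a1, with 4 UMIs in detected and 47 in undetected cells (ratio 0.10, and 0.19 in the second block), Col4a2 with 4 and 29, Bgn with 8 and 32, and Col5a3 with 8 and 32. The ratios of the last 3 in the second block were 0.31, 0.36 and 0.46. The ratio of Acta2 in this division was 8.24, and 1.27 without the 2 cells (0.236 to 6.80).

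The fibroblast list was lower in the Olig2-detected and Olig1-detected cells. In Olig2-detected cells 2.18% of genes were past 2-fold higher and 6.68% lower than in undetected cells, and in Olig1-detected cells 2.05% and 5.87%. The fibroblast list was at 12784 CPM in the 30 Olig2-detected and 20478 CPM in the 92 undetected cells (ratio 0.62, 0.56 to 0.70; 0.77 in the second block, 0.63 with another draw). For Olig1 the ratio was also 0.62 (0.82 in the second block). Over all cells 6 of 10 measured fibroblast members were 2-fold or more lower, with a median of 0.49 against 0.99 over all genes. The first block gave 1 of the 41 Olig1-detected and 26 of the 81 undetected cells, and 3 of the 30 Olig2-detected and 24 of the 92 undetected. The fibroblast list itself was lower in the second block than in the first (ratio 0.52). How much of the count goes with the blocks was not tested. Postn, the matrix protein periostin, had 7 UMIs in Olig2-detected and 100 in undetected cells (ratio 0.21, and 0.38 in the second block). Bgn (2 and 38), Gpc3 (2 and 38) and Col6a1 (3 and 48) were also lower under each alternative, with ratios in the second block of 0.34, 0.20 and 0.40, in the same order of genes. Fstl1, a secreted follistatin-like protein, had 7 UMIs in Olig1-detected and 81 in undetected cells (ratio 0.17, and 0.23 in the second block). The OPC list, with the dividing gene left out, had a ratio of 1.37 in Olig2-detected cells (1.17 to 1.61; 1.26 in the second block) and of 1.24 in Olig1-detected cells (1.17 in the second block).

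Bcan divided the cells least steadily of the 7 genes. Bcan-detected cells (67, against 55 undetected) had 1.77% of genes past 2-fold higher and 2.05% lower. Their cartilage list was at 23652 CPM, against 15218 CPM in undetected cells (ratio 1.55, 1.43 to 1.69), and the ratio was 1.16 in the second block. Of the 16 genes named for Bcan, 1 stayed past 2-fold under each alternative. For Sox10, detected in 27 cells and not in 95, 2.18% were higher and 4.37% lower, and 4 of 16 stayed. Acta2 showed the weight of few cells again: its ratio was 12.1 in Sox10-detected cells, 0.543 without the 2 cells, and 0.19 with another draw. Over the 7 markers, 48 of 112 named genes stayed past 2-fold with another random draw, 97 inside the second block and 98 without the Schwann-like cells, and 31 under all of these.

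**Figure D5:**
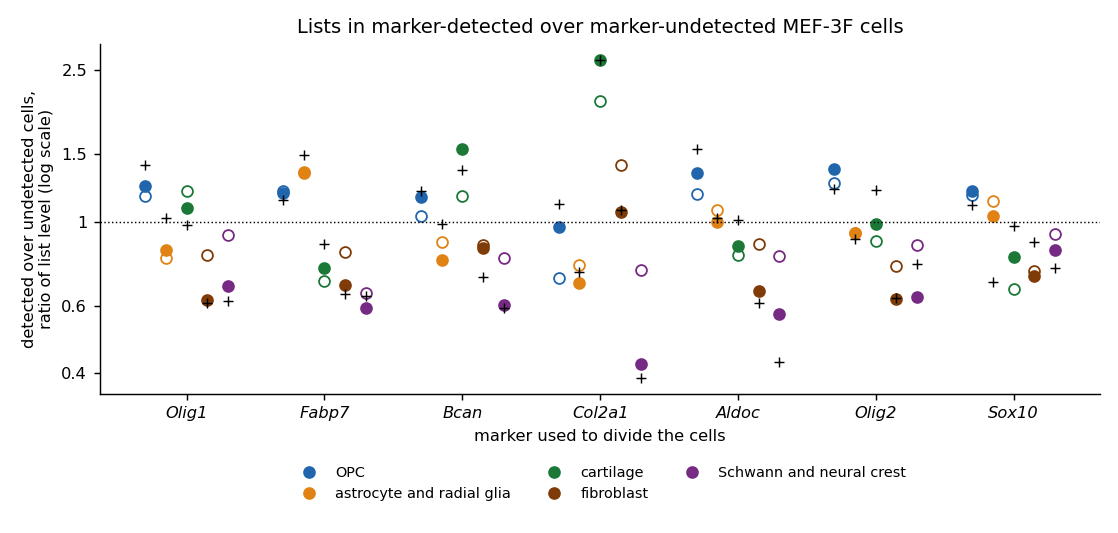
Ratio of the summed level of 5 gene lists in marker-detected over marker-undetected MEF-3F cells, thinned to 1000 UMIs, for 7 markers on a log axis; filled circles are all cells, open circles the second block alone and crosses another random draw, with a dotted line at 1. The cartilage list is highest in Col2a1-detected cells, and the fibroblast list lies below 1 for each marker other than Col2a1.

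Genes most like each marker over cells were ranked by the mean of Pearson's r in the 2 blocks, on log2(CPM + 100). For Col2a1 the 5 most alike were 4 cartilage collagen chains and fibronectin. Col9a2 had an r of 0.55 in the second block and 0.68 in the first, Col9a1 0.47 and 0.73, Col11a2 0.49 and 0.71, Fn1 0.45 and 0.60, and Col11a1 0.44 and 0.59. For Bcan the most alike was Col11a1 (0.23 and 0.70), followed by Sparcl1, and for Olig1 it was Traf4 (0.39 and 0.38). In counts this sparse the lower values are no finding.

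The promoters of 2 of the genes most like Col2a1 are shown, since these genes varied together over cells, beside those of the markers Fabp7 and Bcan, each from 250 bases before to 50 after the start in RefSeq (GRCm38.p6), 5′ to 3′ on the gene's strand. Capitals mark matches to CANNTG, the E-box that basic helix-loop-helix factors such as Olig2 bind, which reads the same on both strands. Of 32851 promoters of this length 72.3% hold at least 1 match. Col9a2 (chr4:121039316-121039615, plus strand) has 2, Col11a2 (chr17:34038888-34039187, plus strand) 2, Fabp7 (chr10:57784673-57784972, plus strand) 2 and Bcan (chr3:88000307-88000606, minus strand) none.
Col9a2: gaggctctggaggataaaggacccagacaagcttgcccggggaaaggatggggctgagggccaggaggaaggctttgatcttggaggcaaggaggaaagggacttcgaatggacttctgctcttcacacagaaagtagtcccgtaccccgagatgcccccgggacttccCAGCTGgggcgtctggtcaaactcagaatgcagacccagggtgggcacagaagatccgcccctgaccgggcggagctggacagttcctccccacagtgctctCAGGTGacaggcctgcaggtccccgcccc
Col11a2: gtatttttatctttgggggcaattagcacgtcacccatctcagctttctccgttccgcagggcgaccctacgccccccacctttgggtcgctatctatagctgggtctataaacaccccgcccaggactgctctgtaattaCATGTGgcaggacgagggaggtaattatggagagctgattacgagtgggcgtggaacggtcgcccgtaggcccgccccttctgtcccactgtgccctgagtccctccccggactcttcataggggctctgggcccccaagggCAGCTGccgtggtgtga
Fabp7: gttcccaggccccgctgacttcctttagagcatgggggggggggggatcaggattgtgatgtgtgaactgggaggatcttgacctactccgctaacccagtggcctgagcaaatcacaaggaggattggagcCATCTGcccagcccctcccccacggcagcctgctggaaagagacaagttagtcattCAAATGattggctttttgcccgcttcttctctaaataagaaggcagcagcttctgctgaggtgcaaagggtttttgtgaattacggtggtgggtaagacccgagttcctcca
Bcan: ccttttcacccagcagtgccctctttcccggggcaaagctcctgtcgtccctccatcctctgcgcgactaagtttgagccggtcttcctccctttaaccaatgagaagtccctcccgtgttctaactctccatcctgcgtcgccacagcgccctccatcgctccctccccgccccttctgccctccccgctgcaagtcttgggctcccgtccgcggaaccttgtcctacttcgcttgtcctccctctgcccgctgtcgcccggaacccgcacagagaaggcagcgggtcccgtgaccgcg

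Processes other than identity also varied. The immediate early list, led by Fos and Egr1, took 0.258 to 4.21% of a cell's UMIs (median 0.975%), with no cell at 0. Cycling transcripts were few: the list of G2 and M genes had 502 UMIs and was absent from 81 of 161 cells, and it was at 1313 CPM in the second block and 210 CPM in the first. Mki67 and Top2a, made in dividing cells, were found in 12 and 13 cells.

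The blocks differed widely beyond the markers. Of 3634 genes with 30 or more UMIs in the library, 14.3% were 2-fold or more higher and 7.82% lower in the second block than in the first. The OPC list was at 6745 CPM in the second block and 4157 CPM in the first (ratio 1.62, 1.46 to 1.81), the fibroblast list at 15686 and 30052 CPM (ratio 0.52) and the Schwann list at 2580 and 4577 CPM (ratio 0.56). Sparc was at 5328 CPM in the second block and 11731 CPM in the first. The cartilage list was close, at 20161 and 21273 CPM (ratio 0.95). The blocks also differed in the share of Schwann-like cells, 8 of 121 in the second and 10 of 40 in the first, and whether they mark runs, plates or cultures is not given in the sources used here.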

How the data were processed

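Single cells were captured as 7 libraries of 1 sample each, and the MEF-3F library was described here. The submitters' processing notes name mm10, STAR 2.5.3a, featureCounts 1.6.1 of Subread, UMI-tools 0.5.3 and bcl2fastq 2.19.1.403, without saying what each did. The deposited values were codes, not counts: per barcode block, the value was the place of the UMI count in the text-sorted list of the counts that occurred, as the values themselves show. They were decoded by aligning code frequencies with a smooth frequency of counts, which gave a probability above 0.99 to 98.6% of UMIs in the second block and 96.1% in the first. The planned design took counts, and was applied to the decoded counts. Barcodes under 500 UMIs were left out. Cells were thinned to 1000 UMIs in 1 random draw. Genes needed 30 UMIs. Clusters came from Ward's method on 10 components of 500 variable genes; the number was the largest from 2 to 8 at which each cluster held 10 or more cells, which was 3. No doublet caller was run. Genes were named by rank (the 25 most variable, 10 per cluster, 8 per end of a division, 5 most alike). Some genes named by these rules are not reported here. Intervals are exact Poisson, conditional binomial or Clopper-Pearson at 95%. The members and the 27 gene lists were chosen with earlier results of these data known. The computations were tested on simulated data. Python 3.11.15, numpy 2.4.6, pandas 2.3.3, scipy 1.17.1 and matplotlib 3.10.9 were used.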

Additional observations from a re-analysis of the deposited data

How the results depend on the processing

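No paired analysis was possible because each group was 1 library. Among the values that answer a comparison, 60 moved by less than the tolerance under an alternative, 20 moved more and 3 changed sign; of the values for single genes, 83 moved by less and 64 by more. The share of cells with a marker followed the depth. Thinned to 500 UMIs the shares were 24.8% for Olig1, 32.3% for Bcan, 55.3% for Col2a1 and 36.0% for Aldoc, and without thinning 55.3% for Olig1, 57.1% for Fabp7, 68.3% for Bcan and 68.3% for Aldoc. In the first block alone they were 3.70% for Olig1, 22.2% for Fabp7, 63.0% for Col2a1 and 14.8% for Aldoc. Another random draw gave 54.9% for Aldoc, and leaving out the Schwann-like cells 81.9% for Col2a1, an alternative chosen after seeing the data. The expected shares over all draws, also added later, were 37.2% for Olig1 and 51.7% for Aldoc. Genes with a variance over mean of 2 or more numbered 17 when thinned to 500 UMIs and 56 when 10 UMIs sufficed. In the first block alone, r was 0.49 for OPC and cartilage, -0.41 for Schwann and cartilage (-0.21 in all cells) and -0.53 for OPC and astrocyte lists (-0.16 in all cells). Without the Schwann-like cells, r of the Schwann and cartilage lists was 0.24. For the Schwann and fibroblast lists r was 0.24 in all cells, -0.087 without the Schwann-like cells and -0.020 in the second block alone. Centring inside each block gave 2 clusters and put 73 cells in the Schwann-like cluster, in place of 18, with all 18 among them. With 20 components the Schwann-like cluster held 14 cells, which include 2 of the 4 cells with a higher OPC share. With 1000 variable genes there were 2 clusters, of 18 and 143 cells, and the Col2a1-rich and Fabp7-rich cells were not divided. A minimum of 1000 UMIs gave 4 clusters. The cause of these moves was not tested.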

Other observations

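Transcripts that tell the sex of a mouse cell were found in part of the MEF-3F cells, a pattern looked for after the data were seen. Xist, made from the inactive X chromosome of females, was found in 25 of 161 cells and Y-linked genes in 22, with both in 4. By cluster, Y-linked UMIs were found in 15 of 51 Fabp7-rich cells, 7 of 92 Col2a1-rich cells and 0 of 18 Schwann-like cells. Xist was found in 5, 17 and 3 cells in the same order of clusters. The Fabp7-rich cells were the shallowest, with a median of 1238 UMIs. How many embryos gave the fibroblasts is not given in the sources used here, and no relation of sex to the clusters was tested.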
